A study of Mus musculus with 20 samples.

Results

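Trimethylation of lysine 27 on histone H3 (H3K27me3) was mapped by chromatin immunoprecipitation and sequencing (ChIP-seq) in wild-type (WT) mouse embryonic fibroblasts and in fibroblasts homozygous for the L allele of Rb1 (written dL or Rb1L/L in the labels, RbL here). All peaks on the 19 autosomes in the 2 WT and the 2 RbL H3K27me3 lists were taken, which gave 166808 of the 171067 peaks in these 4 lists and of the 1324083 peaks in the 12 lists of the series. The other 8 lists hold peaks of CAP-D3 and CAP-H2, subunits of condensin II, and of TFIIIC, which binds the internal promoters of genes such as those of tRNAs. Cells came from C57BL/6 embryos taken at E13.5 and were still dividing at passage 4. The L allele alters the cleft by which the retinoblastoma protein pRb binds partners with an LXCXE motif, and both copies of Rb1 carry it in the RbL cells. For H3K27me3, cells of both genotypes were fixed with 2 mM EGS, a long protein crosslinker, and then 1% formaldehyde, and most chromatin was sheared to 400 bp or less. By the labels, the second WT library shares its input with the WT condensin II libraries, and the first RbL library with the RbL ones. The labels number the 2 libraries of a genotype but do not name separate embryos or cultures, so all p-values measure the spread between these libraries only.

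H3K27me3 is written by Polycomb repressive complex 2 through its subunit EZH2, and it marks silenced genes in chromatin. It often spreads over many kilobases, with the Hox gene clusters and other regulators of embryonic development among its best known sites. A peak caller can cut such a domain into many peaks, so the width of peaks, the gaps between them and the way they join describe how continuous the called signal is.

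Both RbL lists held more peaks than either WT list, and a larger part of the genome was covered. The numbers of autosomal peaks were 24634 in WT 1, 42944 in WT 2, 43610 in RbL 1 and 55620 in RbL 2. RbL exceeded WT by 0.60 on the log2 scale, or 1.51-fold. Peaks covered 23.9 Mb in WT 1, 42.6 Mb in WT 2, 44.9 Mb in RbL 1 and 58.7 Mb in RbL 2. The difference in covered length was 0.69 on the log2 scale, or 1.61-fold. Without WT 1, the shortest list, the log2 differences were 0.20 for peak number and 0.27 for covered length, and without WT 2 they were 1.0 and 1.10. The genotypes did not overlap in either measure, but WT 2 and RbL 1 lay closer to each other than to the other library of their own genotype. Each comparison gave a two-sided exact permutation p of 0.33, the smallest that 2 libraries against 2 can give, so no difference between library values can pass a threshold in this design. The sources used here give no read number per library, and the part of depth in these differences was not tested. The median of the authors' score per peak was 262 in WT 1, 187 in WT 2, 254 in RbL 1 and 147 in RbL 2, and did not order the libraries by genotype. On chromosome X, which was not part of the set, the lists held 106, 3034, 340 and 766 peaks in the same library order. With chromosome X added, WT 2 held more peaks than RbL 1 and the exact permutation p for peak number was 0.67.

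Most peaks were narrow in every library, and the genotypes differed in the share of the widest ones. The median width was 631 bp in WT 1, 628 bp in WT 2, 640 bp in RbL 1 and 646 bp in RbL 2. Peaks of 0.5 to under 1 kb were 77.5% of WT 1, 77.9% of WT 2, 76.6% of RbL 1 and 75.8% of RbL 2. Peaks of at least 5 kb were rare. They numbered 308 in WT 1, 623 in WT 2, 767 in RbL 1 and 1045 in RbL 2. As a share of the list, the mean of WT was 1.35% ± 0.14 and that of RbL 1.82% ± 0.085 (SD, n = 2 each), with no overlap (exact permutation p = 0.33). These peaks held 9.72% and 12.8% of the covered length in WT 1 and WT 2, against 14.9% and 15.9% in RbL 1 and RbL 2. Both RbL libraries thus had a larger part of their covered length in wide peaks, by 4.15 percentage points on average and by 2.61 without WT 1.

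The 2 steps above 5 kb did not behave alike. Peaks of 5 to under 10 kb made up 1.08% of WT 1 and 1.10% of WT 2, nearly the same share in lists of very different length, and 1.35% and 1.45% of RbL 1 and RbL 2. Peaks of 10 kb and over made up 0.175% of WT 1, 0.349% of WT 2, 0.406% of RbL 1 and 0.426% of RbL 2, from counts of 43, 150, 177 and 237. In this widest class WT 1 stood apart from the other 3 lists, and WT 2 lay nearer to the RbL lists than to WT 1. Between 1 and 2 kb the RbL share was again higher, with 14.97% and 15.8% against 13.8% and 14.1%. Between 2 and 5 kb the genotypes overlapped, with 6.08% of WT 1, 5.51% of WT 2, 5.72% of RbL 1 and 5.88% of RbL 2. Below 0.5 kb the WT shares were the higher ones, at 1.41% and 1.08% against 0.949% and 0.592%.

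**Figure D1:**
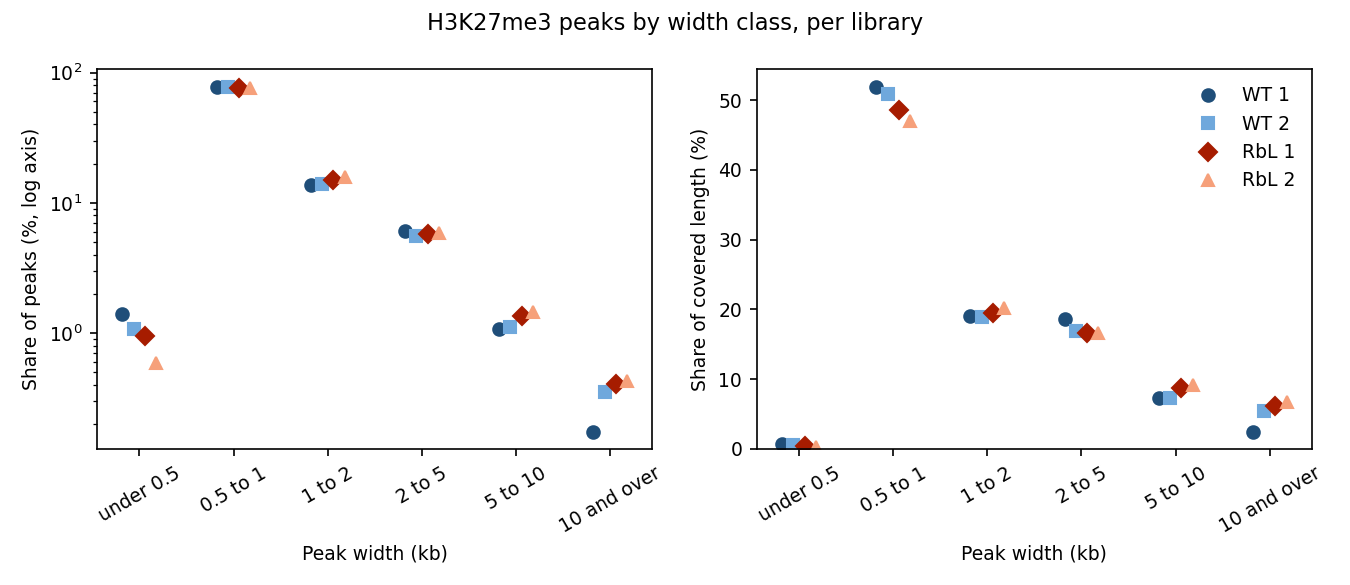
Share of autosomal H3K27me3 peaks (left, percent on a log axis) and share of covered length (right, percent) by peak width class, with 1 symbol per library and no error bars, since each symbol is 1 list. In the classes from 5 kb upward both RbL symbols lie above both WT symbols, and WT 1 lies lowest in the class of 10 kb and over with 0.175% of its peaks.

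From 0.5 kb upward, wider peaks had higher scores in all 4 lists. The median score of peaks of 0.5 to under 1 kb was 236, 167, 224 and 128 in WT 1, WT 2, RbL 1 and RbL 2, and that of peaks of 2 to under 5 kb was 2159, 1675, 2194 and 1245. For peaks of 5 kb and over it was 3100 in each list, a value at which many peaks are tied. Wide peaks were also the ones found again elsewhere. Between 99.5% and 100% of peaks of 5 to under 10 kb in a list, and between 97.7% and 100% of those of 10 kb and over, overlapped a peak of any other list by at least 1 bp. Among peaks of 0.5 to under 1 kb, the share found again ranged from 13.6% (RbL 2 in WT 1) to 63.3% (WT 1 in RbL 2), and it was higher where the other list was longer. Sharing a genotype did not make a pair of libraries clearly more alike. The length covered in both lists, as a share of the length covered in either, was 28.6% for the WT pair and 33.6% for the RbL pair. It was 32.7% for WT 2 and RbL 1, 32.5% for WT 2 and RbL 2, 29.2% for WT 1 and RbL 1, and 25.8% for WT 1 and RbL 2. The RbL pair was highest by a narrow margin, and the WT pair lay below 3 of the 4 mixed pairs.

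Peaks lay closer together in RbL. The median gap from a peak to the next on the same chromosome was 4534 bp in WT 1, 3823 bp in WT 2, 3305 bp in RbL 1 and 2791 bp in RbL 2. Both RbL medians were shorter than both WT medians, and the difference was -0.46 on the log2 scale (exact permutation p = 0.33). Gaps of at most 5 kb made up 51.2% of all gaps in WT 1, 53.9% in WT 2, 55.8% in RbL 1 and 58.8% in RbL 2. The closest neighbours contributed to this: gaps of at most 1 kb were 29.8% in WT 1, 29.6% in WT 2, 31.4% in RbL 1 and 32.9% in RbL 2. Those of over 1 to 5 kb were 21.4%, 24.2%, 24.4% and 26.0% in the same order, with little between WT 2 and RbL 1. At the far end, gaps over 500 kb were 4.61% in WT 1, 2.21% in WT 2, 2.16% in RbL 1 and 1.58% in RbL 2, which set WT 1 apart.

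A longer list tends to have shorter gaps, so each list was also reduced to its 24634 highest-scoring peaks, the length of the WT 1 list. The median gap was then 4534 bp in WT 1, 4888 bp in WT 2, 4491 bp in RbL 1 and 4542 bp in RbL 2. WT 1 now lay between the RbL libraries, and the difference in gaps shrank from -0.46 to -0.06 on the log2 scale. Gaps of at most 5 kb made up 50.3% to 51.5% in all 4. At equal number, peaks of at least 5 kb made up 1.25% of WT 1, 2.52% of WT 2, 3.11% of RbL 1 and 4.24% of RbL 2. The reduction removed almost none of them: at 5 to under 10 kb, 265, 473, 589 and 807 remained of 265, 473, 590 and 808. The order of these shares was therefore fixed by the counts of wide peaks in the full lists and adds nothing to them. Covered length was 23.9, 31.4, 33.3 and 39.5 Mb, a log2 difference of 0.41. This reduction leaves WT 1 whole and removes the weakest and narrowest peaks of the other lists, most of all from RbL 2, so it does not put the libraries at equal depth.

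**Figure D2:**
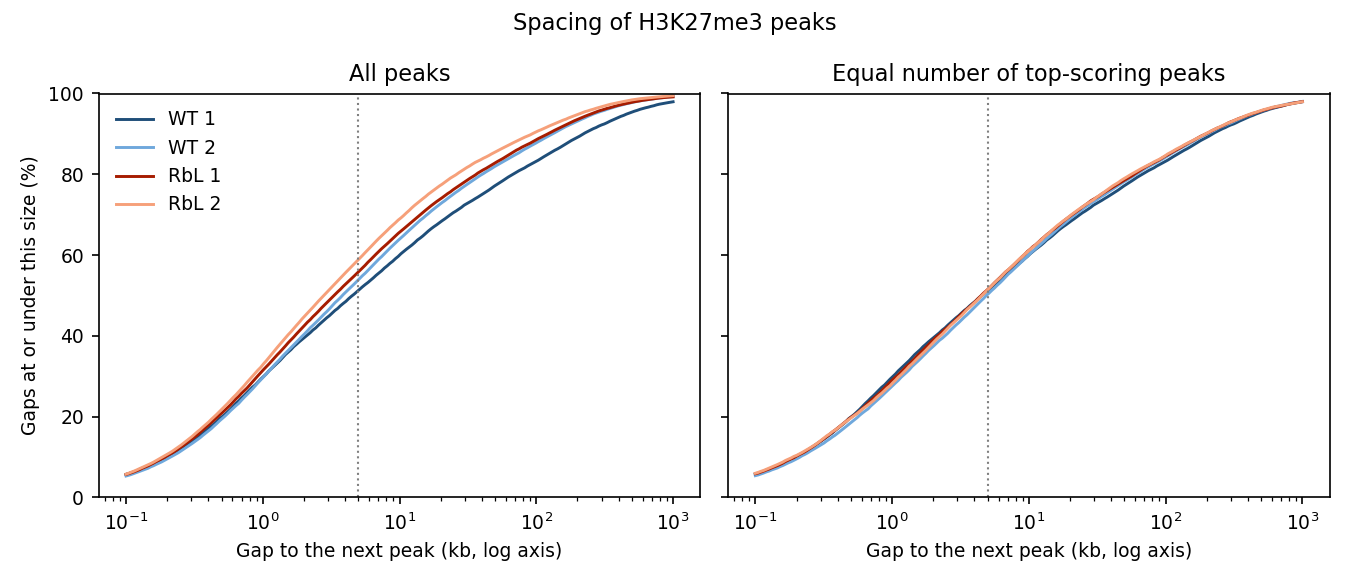
Cumulative share of gaps between neighbouring autosomal H3K27me3 peaks (percent) against gap size in kb on a log axis, 1 line per library, for all peaks (left) and for the 24634 highest-scoring peaks of each list (right), with a dotted line at 5 kb. The lines are spread at 5 kb with all peaks, from 51.2% in WT 1 to 58.8% in RbL 2, and run together at equal number.

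Joined across gaps of at most 5 kb, the peaks gave 12026 domains in WT 1, 19813 in WT 2, 19279 in RbL 1 and 22905 in RbL 2. The genotypes overlapped in domain number (log2 difference 0.45, exact permutation p = 0.67), since RbL 1 had more peaks than WT 2 but fewer domains. The log2 difference was 0.085 without WT 1 and 0.81 without WT 2. A domain held a mean of 2.05 peaks in WT 1, 2.17 in WT 2, 2.26 in RbL 1 and 2.43 in RbL 2, with no overlap. This log2 difference of 0.15 was 0.051 when only gaps of at most 1 kb were joined, 0.091 at 2 kb and 0.021 at equal number of peaks. Domains of a single peak were 61.5%, 59.9%, 58.0% and 55.7% of all domains in that order. They were small everywhere, with a median span of 596 to 598 bp in each list. Domains of 11 or more peaks held 9.96% of the peaks in WT 1, 12.3% in WT 2, 13.7% in RbL 1 and 16.3% in RbL 2.

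Large domains were more numerous in RbL. Domains of at least 20 kb numbered 267 in WT 1, 577 in WT 2, 608 in RbL 1 and 918 in RbL 2, a difference of 0.93 on the log2 scale, or 1.90-fold (exact permutation p = 0.33). It was 0.37 without WT 1 and 1.48 without WT 2. WT 2 and RbL 1 differed far less here than the libraries within either genotype. Domains of at least 50 kb numbered 24, 69, 77 and 127 in the same order. The share of covered length inside domains of at least 20 kb averaged 24.6% ± 3.0 for the WT and 30.6% ± 2.62 for the RbL libraries (SD, n = 2 each), without overlap (exact permutation p = 0.33). This difference of 5.94 percentage points was 3.82 without WT 1, 2.41 when joined at 2 kb and 0.74 when joined at 1 kb. Within these domains, peaks covered 61.2% of the span in WT 1, 58.0% in WT 2, 60.5% in RbL 1 and 58.7% in RbL 2. The genotypes were interleaved in this measure (exact permutation p = 1), with a difference of -0.012 percentage points. At equal number of peaks, 267, 360, 399 and 472 domains of at least 20 kb remained, a log2 difference of 0.49. The total number of domains was then nearly level, from 11956 in RbL 1 to 12255 in WT 2.

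**Figure D3:**
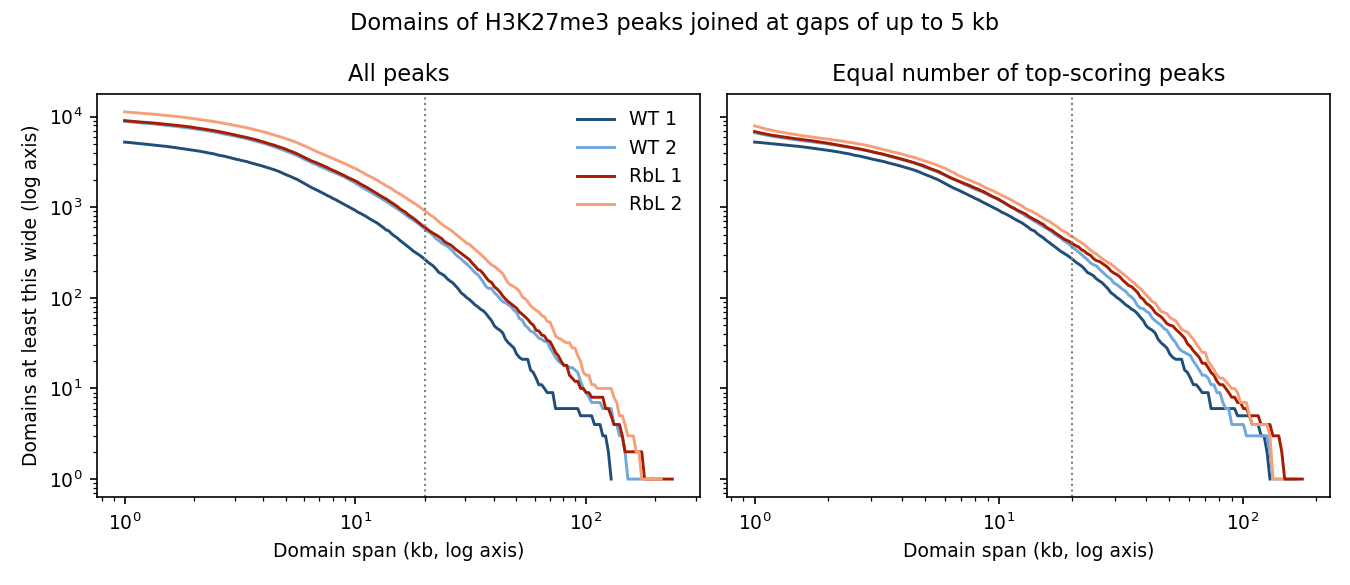
Number of domains at least as wide as the span on the x axis (kb), both axes log, 1 line per library, for all peaks (left) and for the 24634 highest-scoring peaks of each list (right), with a dotted line at 20 kb. With all peaks the counts at 20 kb are 267 in WT 1, 577 in WT 2, 608 in RbL 1 and 918 in RbL 2, and the lines of WT 2 and RbL 1 nearly coincide.

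WT 2 and RbL 1 have lists of nearly equal length and allow the genotypes to be set side by side without a large difference in peak number, though as 1 library each and with no test. RbL 1 had 1.55% more peaks than WT 2 and covered 5.39% more. It had 23.1% more peaks of at least 5 kb, 18.0% more of at least 10 kb and a median gap 0.865 times as long. It had 5.37% more domains of at least 20 kb and 11.6% more of at least 50 kb, with 11189 single-peak domains against 11875. For comparison, WT 2 had 2.02 times as many peaks of at least 5 kb as WT 1, and RbL 2 had 1.36 times as many as RbL 1. In these counts the 2 closest libraries differed less than the libraries within either genotype. The share of peaks of at least 5 kb was an exception: RbL 1 had 1.21 times the share of WT 2, against 1.16 times between WT 2 and WT 1 and 1.07 times between RbL 2 and RbL 1.

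Joining was then followed from library to library. A domain was counted as joined when it and another domain of its list fell inside the same domain of the other list. Of the WT 2 domains overlapped by RbL 1, 12.1% (1092 domains) were joined in RbL 1. In the opposite direction, 9.96% (890 domains) of RbL 1 were joined in WT 2. The excess in RbL 1 is small beside that between libraries of a genotype: 17.5% of overlapped WT 1 domains were joined in WT 2 against 2.91% in reverse, and 17.6% of overlapped RbL 1 domains in RbL 2 against 7.34% in reverse. The highest share, 26.1%, was that of WT 1 domains joined in RbL 2, the shortest and the longest list.

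To compare the same places in all libraries, the peaks of all 4 lists were pooled and joined at gaps of at most 5 kb, which gave 31486 joint domains. Of these, 6221 (19.8%) held peaks of every library, and they contained 90.6% of the covered length of WT 1, 78.6% of WT 2, 79.7% of RbL 1 and 75.3% of RbL 2. All 290 joint domains of at least 50 kb and 1441 of the 1508 of 20 to under 50 kb were found in every library. No joint domain of at least 20 kb was found in only 1 genotype. Wide joint domains are built from peaks pooled over all 4 lists, and any cover counts as found. Their presence in every library thus follows in part from the construction. Joint domains with peaks of both RbL libraries and no WT library numbered 1765 (5.61% of all joint domains), with a median span of 2.71 kb. Those of both WT libraries alone numbered 222 (0.705%). The mixed pairs gave 317 (1.01%) for WT 1 with RbL 1 and 434 (1.38%) for WT 1 with RbL 2. WT 2 gave 887 (2.82%) with RbL 1 and 1843 (5.85%) with RbL 2. The RbL pair was therefore not above every mixed pair, and pairs that include the short WT 1 list gave the lowest numbers.

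Within the 6221 joint domains of all libraries, covered length was higher in both RbL libraries than in both WT libraries in 2926 (47.0%) and lower in both in 101 (1.62%). The share that was higher increased with size, from 35.6% at 1 to under 5 kb to 45.8% at 5 to under 20 kb, 54.5% at 20 to under 50 kb and 66.2% at 50 kb and over. The size of the difference did not keep rising. Its median between the genotype means was 0.39, 0.64, 0.67 and 0.55 on the log2 scale in these classes. The span from first to last peak was higher in both RbL libraries in 35.5%, and the widest peak in 41.7%. Without WT 1, covered length was higher in both RbL libraries than in WT 2 in 50.8% and lower in both in 14.4%. Without WT 2, the shares were 83.5% and 3.17%. RbL 1 exceeded WT 2 in 57.1% of these domains, whereas WT 2 exceeded WT 1 in 83.2% and RbL 2 exceeded RbL 1 in 73.2%. The median log2 difference in covered length was 0.60 between the genotype means, 0.66 between WT 2 and WT 1, 0.31 between RbL 2 and RbL 1, and 0.09 between RbL 1 and WT 2.

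The 290 largest joint domains were broken up least in RbL 2. They consisted of a mean of 3.84 separate domains in WT 1, 3.25 in WT 2, 3.10 in RbL 1 and 2.42 in RbL 2. A single unbroken domain was found in 7.59%, 9.31%, 13.8% and 25.9% of them, and peaks covered 27.4%, 39.4%, 42.5% and 50.1% of their span. RbL 1 lay nearer to WT 2 than to RbL 2 in each of these values.

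At the level of single bases, 95.9 Mb were covered in at least 1 library and 11.7 Mb (12.2%) in all 4. Both RbL libraries and no WT library covered 6.10 Mb, and both WT libraries and no RbL library covered 0.865 Mb. Mixed pairs alone covered 1.10 Mb (WT 1 with RbL 1), 1.77 Mb (WT 1 with RbL 2), 2.84 Mb (WT 2 with RbL 1) and 5.38 Mb (WT 2 with RbL 2), so the RbL pair was the highest of the 6 pairs, by a narrow margin over WT 2 with RbL 2. Of the bases covered by both RbL libraries alone, 94.0% lay in joint domains that also held WT peaks, 67.5% between WT peaks of the same domain and 26.5% beyond the outermost one. Of those covered by both WT libraries alone, 72.2% lay between RbL peaks and 24.4% beyond them. For the mixed pairs, 93.0% to 96.2% lay in joint domains with peaks of the other libraries, and 66.0% to 73.5% between those peaks. These shares were thus similar for every pair and do not set the genotypes apart.

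The domains described next were chosen for being large in all 4 libraries, so their presence in both genotypes follows from the choice. The 6 with the highest minimum covered length over the 4 libraries include domains on chromosomes 15, 11, 6 and 2, which are also the chromosomes of the mouse Hoxc, Hoxb, Hoxa and Hoxd genes in the RefSeq annotation of another build (GRCm38.p6). Genes were not assigned by position, because no mm9 annotation was used here. At chr15:102560909-102902078, 145, 175, 215 and 199 kb were covered in WT 1, WT 2, RbL 1 and RbL 2. At chr11:96004559-96245591, 141, 151, 199 and 186 kb were covered. Both RbL libraries were above both WT libraries at these loci. At chr6:52113544-52279074, the covered lengths were 99.2, 104, 136 and 129 kb, and at chr2:74479878-74616102 they were 93.8, 98.3, 122 and 104 kb. The remaining 2, chr7:86620111-86802907 (88.6, 114, 116 and 140 kb) and chr17:36193243-36374092 (87.9, 96.6, 107 and 130 kb), had the same order of genotypes. The excess in RbL was smaller there than over the whole lists. Relative to each library's total covered length, the log2 differences of the 6 were -0.46 to -0.29 in RbL, and none was called (limma adjusted p from 0.899 to 0.910). With no filter on low values, 31486 domains were tested, and those on chromosomes 2 (limma adjusted p = 0.00097), 15 (0.0022) and 11 (0.0316) were called as lower in RbL. On lengths that were not scaled they were 0.23 to 0.40, so the direction depends on the scaling.

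The widest single peaks and domains of the libraries also fell in these places in RbL. In RbL 1 the widest peak was chr15:102735291-102791158 (55.9 kb) and in RbL 2 chr15:102734979-102809775 (74.8 kb), both within the chromosome 15 domain above. In WT 1 it was chr17:35550158-35583582 (33.4 kb) and in WT 2 chr8:126061171-126124309 (63.1 kb). The widest joined domain lay on chromosome 11 in WT 1 (chr11:96110808-96242557, 132 kb), RbL 1 (chr11:96006939-96245591, 239 kb) and RbL 2 (chr11:96004559-96217614, 213 kb). In WT 2 it was chr9:47330755-47509891 (179 kb).

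Joint domains were then tested for a change relative to the library as a whole, with limma on log2 of the covered length scaled to each library's total. Of 4338 joint domains with a mean scaled length of at least 2 kb, 2 (0.0461%) passed a Benjamini-Hochberg adjusted p of 0.05. Both were lower in RbL and none was higher, while 125 (2.88%) had an unadjusted p under 0.05. The scaled length of both RbL libraries lay above both WT libraries in 663 domains (15.3%) and below in 816 (18.8%).

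The larger of the 2 called differences was at chr8:126061171-126151367, a span of 90.2 kb. There 27.6 kb were covered in WT 1, 88.2 kb in WT 2, 0.559 kb in RbL 1 and 1.57 kb in RbL 2. Almost all of this signal was absent from both RbL lists, and the log2 difference was -6.06 ± 0.38 (SE, limma adjusted p = 3.95e-06). In WT 1 the signal was a single peak of 27.1 kb with a score of 3100. In WT 2 it was a peak of 63.1 kb followed after a few bases by one of 24.3 kb, with scores of 110.51 and 615. The first was the lowest-scoring of the 150 WT 2 peaks of at least 10 kb, whose median was 3100. The 2 RbL libraries had 1 short peak each at the far end of the domain, where both WT libraries also had one.

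CAP-D3 peaks in the same domain were regularly spaced in WT. The WT list held 42, with a median of 1.74 kb between neighbouring midpoints (quartiles 1.67 and 1.83 kb), covering 28.3 kb in all. The RbL list held 18, with a median of 3.29 kb (quartiles 1.74 and 6.77 kb), covering 11.7 kb. Whether the locus is made of repeated sequence was not tested, since no mm9 genome was used here. CAP-H2 had 16 peaks in WT and 10 in RbL, and TFIIIC had 1, 0, 0 and 1 in WT 1, WT 2, RbL 1 and RbL 2. CAP-D3 and CAP-H2 lists exist for 1 library per genotype, so these counts have no replicate check. With each library left out in turn, the log2 difference ranged from -6.52 to -5.62 and the limma adjusted p from 1.90e-34 to 0.0196. In these fits a genotype has 1 library, which is assumed to vary like the other genotype, so these p-values are a weak check. The call was lost at equal number of peaks (log2 -5.81, limma adjusted p = 0.148) and without a trend in the variance (-6.06, limma adjusted p = 0.153), with the difference about as large.

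The other called domain was chr6:47601365-47637148, 35.8 kb wide. Peaks covered 32.2 kb in WT 1, 26.1 kb in WT 2, 4.27 kb in RbL 1 and 10.6 kb in RbL 2. Both RbL libraries were below both WT libraries, with a log2 difference of -2.75 ± 0.40 (SE, limma adjusted p = 0.0238). WT 1 had 11 peaks there and WT 2 had 7, most of them 3 to 5 kb wide, whereas RbL 1 had 1 and RbL 2 had 4. TFIIIC peaks covered 34.1 to 34.8 kb of the same domain in each of its 4 lists, and CAP-D3 and CAP-H2 had 8 peaks each in WT and 6 each in RbL. CAP-D3 covered 15.2 kb in WT and 10.4 kb in RbL, whereas CAP-H2 covered 29.8 kb in WT and 35.7 kb in RbL, with 1 library each. Neighbouring midpoints of CAP-D3 peaks in WT lay a median of 4.25 kb apart (quartiles 3.92 and 4.41 kb). For H3K27me3 the median was 4.32 kb in WT 2 (4.09 and 4.43 kb) and 3.42 kb in WT 1 (2.29 and 4.32 kb). Whether this locus is made of repeated sequence was not tested either. The call was lost without WT 1 (log2 -2.19, limma adjusted p = 0.204), without WT 2 (-3.32, 0.0695), with scores of at least 100 (-2.30, 0.153), without scaling (-2.07, 0.501) and without a trend (-2.75, 0.908). At equal number of peaks the difference itself was smaller (-1.06, 0.964).

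**Figure D4:**
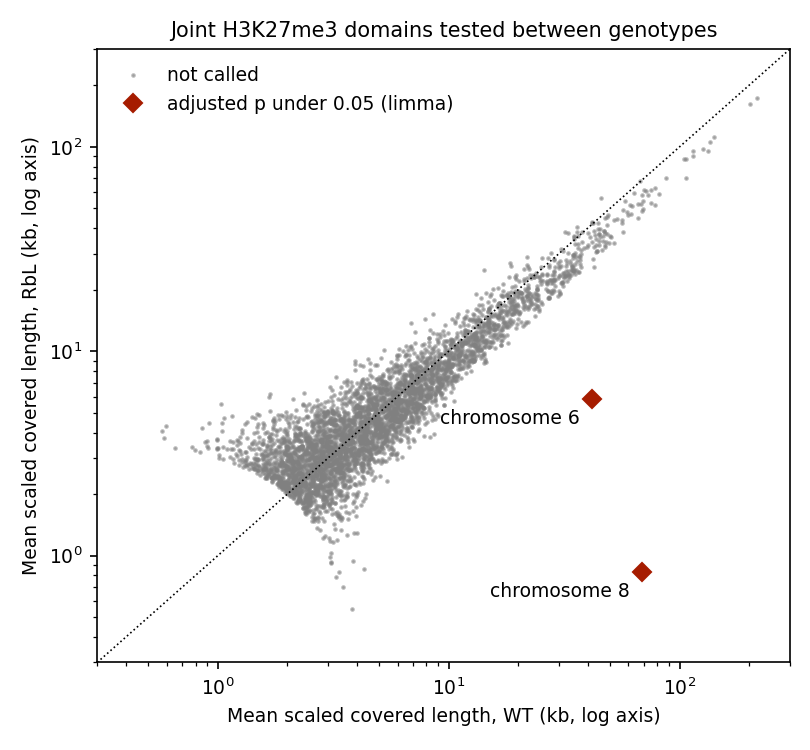
Mean scaled covered length of the 4338 tested joint domains in the 2 RbL libraries against that in the 2 WT libraries (kb, both axes log), 1 point per domain, with the line of equality dotted. The 2 called domains (diamonds) lie far below the line. Their scaled lengths in RbL 1 and RbL 2, of which the mean is plotted, were 0.529 and 1.13 kb on chromosome 8. On chromosome 6 they were 4.05 and 7.65 kb.

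In the main fit of all 4 libraries, no joint domain was called as higher in RbL. The smallest p among those that were higher belonged to chr2:120007033-120041051, with 1.22, 1.16, 6.57 and 7.80 kb covered and a log2 difference of 1.77 (limma adjusted p = 0.899). In this domain 2 peaks in each WT library stood against 9 in RbL 1 and 12 in RbL 2. The next were chr11:35531018-35557866 (log2 1.38), chr5:38551072-38584943 (1.34) and chr4:134510317-134531052 (1.89), each with the same limma adjusted p of 0.899 and 1 to 4 peaks per WT library. A second ranking used the distance between the genotypes in scaled covered length, whereas the lengths listed here are unscaled and do not show its order. In this ranking, chr9:61288487-61361487 came first with 4.03, 9.91, 15.98 and 21.1 kb covered. It was followed by chr17:26429210-26531752 (9.38, 20.02, 30.4 and 34.4 kb), chr15:77454212-77517488 (4.39, 7.90, 16.9 and 17.5 kb) and chr17:25428181-25474919 (6.79, 14.2, 19.8 and 26.6 kb). The excess consisted of more, narrow peaks in the third of these: at chr15:77454212-77517488, 6 and 7 peaks in WT stood against 20 and 19 in RbL, and no peak was wider than 3.65 kb.

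Below the 2 called domains, the smallest p among those lower in RbL belonged to chr16:95802312-95813788 (5.23, 7.29, 4.50 and 4.58 kb, log2 -1.09) and chr13:70978949-70995700 (4.17, 8.27, 4.55 and 4.64 kb, log2 -1.0), both with a limma adjusted p of 0.899. At chr13:70978949-70995700 WT 1 covered less than both RbL libraries, so the genotypes lay apart only after scaling (log2 -0.34 without it). At chr1:78087372-78233574 (49.2, 87.7, 71.7 and 101 kb) and chr9:47311090-47515051 (60.8, 122, 100.2 and 132 kb) the genotypes also lay apart only after scaling, with log2 differences of -0.31 and -0.26. On lengths that were not scaled these 2 were higher in RbL by 0.37 and 0.42.

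**Figure D5:**
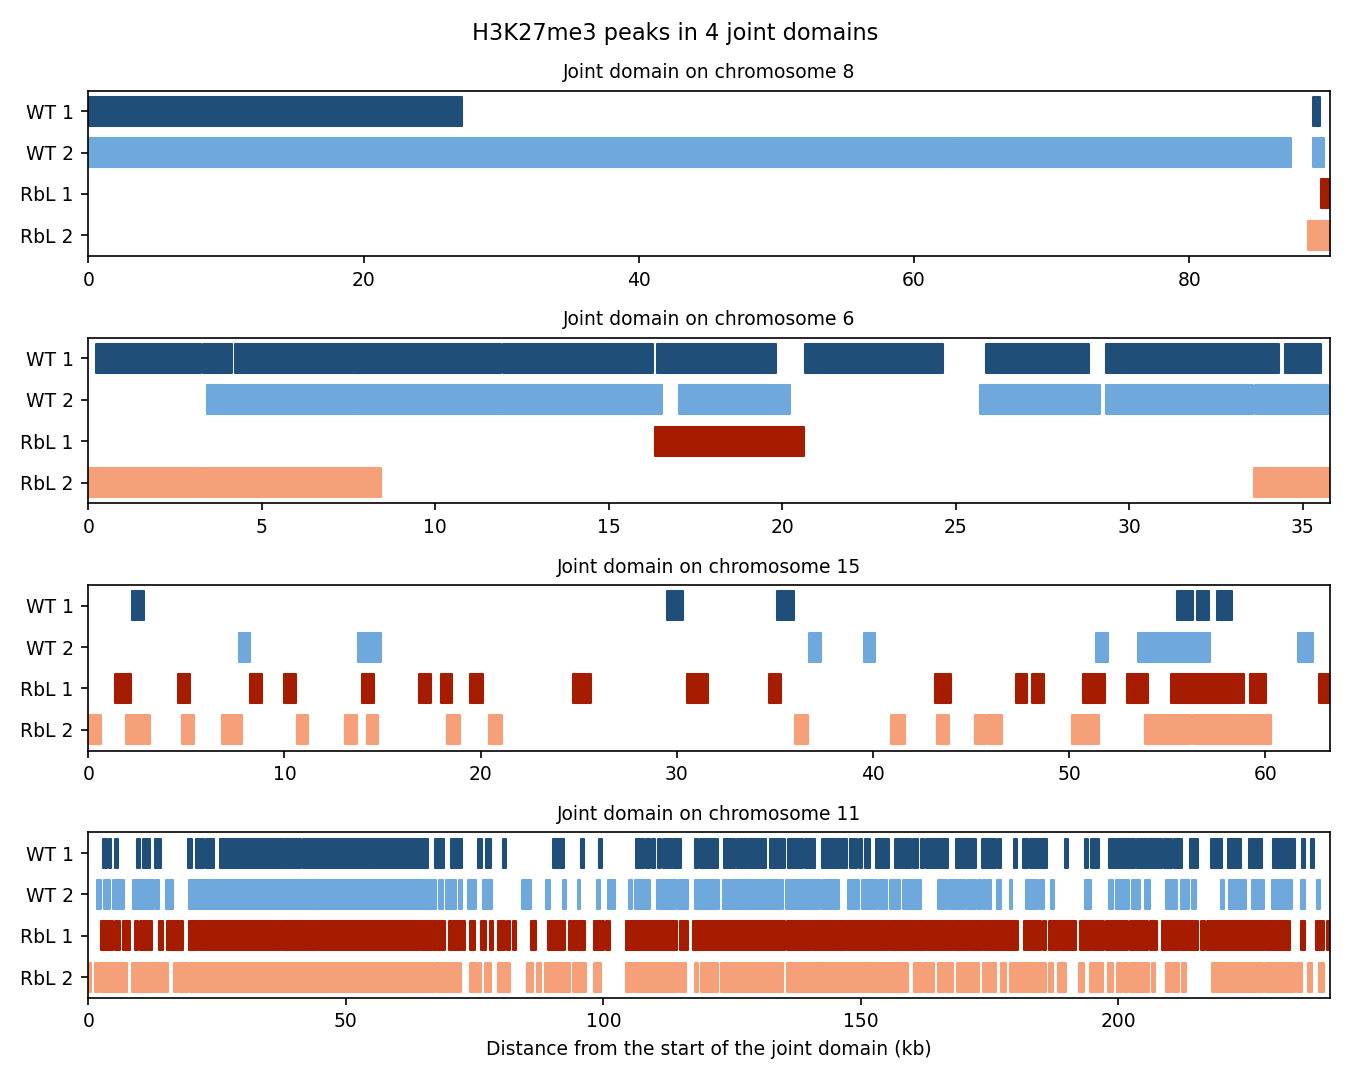
Peaks of the 4 libraries (bars) in 4 joint domains, with the distance from the start of the domain in kb on the x axis and 1 track per library. On chromosome 8 the WT 2 track is nearly filled (88.2 kb covered), while WT 1 has 1 block of 27.1 kb and a short peak (27.6 kb covered). The RbL tracks are almost empty there. On chromosome 6 the WT tracks hold most peaks (32.2 and 26.1 kb covered) and the RbL tracks hold less. On chromosome 15 the domain starting at 77454212 holds 20 and 19 narrow peaks in RbL, and on chromosome 11 the largest blocks of all 4 libraries line up.

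Windows of 1 Mb were tested in the same way. Of 1385 windows with a mean scaled length of at least 5 kb, 0 passed the adjusted threshold (limma, smallest adjusted p = 0.617), and 39 (2.82%) had an unadjusted p under 0.05. The windows with the smallest p in each direction were chr16:23000001-24000000 (13.9, 27.8, 43.0 and 59.7 kb, log2 0.66, limma adjusted p = 0.895) and chr8:126000001-127000000 (41.8, 125, 34.2 and 39.5 kb, log2 -1.63, limma adjusted p = 0.617). The second of these contains the called domain of chromosome 8 and was itself called with scores of at least 100 (limma adjusted p = 0.0326) and at equal number of peaks (0.00929). The next in each direction were chr2:166000001-167000000 (log2 0.66) and chr6:47000001-48000000 (log2 -1.12), both with a limma adjusted p of 0.895. By chromosome, both RbL libraries covered more per Mb than both WT libraries on 17 of 19 autosomes (89.5%), with log2 differences of 0.61 to 0.85 on all 19. On chromosomes 8 and 14 WT 2 was slightly above RbL 1. The share of a library's covered length that a chromosome held differed little, by -0.07 (chromosome 19) to 0.16 (chromosome 16) on the log2 scale, and the genotypes were apart on 3 chromosomes (15.8%), which were 15, 16 and 19.

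H3K27me3 was set beside the condensin II and TFIIIC lists of the same genotype. CAP-D3 peaks covered H3K27me3 bases 3.20 and 2.39 times as densely as the autosomes as a whole in WT 1 and WT 2, and 2.77 and 1.80 times in RbL 1 and RbL 2. The ratios of CAP-H2 were 0.668 in WT 1, 0.548 in WT 2, 0.748 in RbL 1 and 0.414 in RbL 2. In both genotypes the longer H3K27me3 list thus had the lower ratio, and the genotypes overlapped. CAP-D3 overlapped 18.6%, 30.7%, 25.4% and 26.2% of the H3K27me3 peaks of 10 kb and over in WT 1, WT 2, RbL 1 and RbL 2, but 0.709% to 1.72% of those of 0.5 to under 1 kb. A wider peak has more room for an overlap, and this was not corrected for. For TFIIIC the ratios were 0.915 to 1.14 over the 4 pairs of WT lists and 1.15 to 1.29 over those of RbL. The TFIIIC lists were longer in RbL, with 286175 and 291040 autosomal peaks against 195239 and 230951, and the cells for TFIIIC were fixed with formaldehyde alone.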

How the data were processed

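Peak lists were analysed for the 4 H3K27me3 libraries, with the 8 other lists for comparison. Per the submitters' processing notes, which give no settings, reads were handled with Bowtie2 2.3.0, MACS 1.4.0rc2 and the mm9 build; the lists are per library, not pooled. Each deposited line holds a position and the authors' score, without a column name; MACS of this version writes a scaled negative logarithm of a p-value there, so the score depends on read depth and input. It was used for ordering and filtering inside a list, and its medians were set side by side. The minimum of 100 was the same for all lists and did not act equally on them. It kept 99.2% of the peaks of WT 1, 94.0% of WT 2, 98.8% of RbL 1 and 83.1% of RbL 2. Read depth, genes and sequence were not used here. Coordinates are 1-based.

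Peak number, covered length, widths, gaps and domains (gaps of at most 5 kb joined, large from 20 kb) were computed per library with Python 3.11.15 and numpy 2.4.6. Genotypes were compared with two-sided exact permutation tests, on log2 values for numbers and lengths. Joint domains (4338 tested, pseudocount 200 bp) and 1 Mb windows (pseudocount 1 kb) were tested with limma 3.58.1 in R 4.3.3, with a variance trend and Benjamini-Hochberg adjustment over all features tested; covered lengths were scaled to the library total, so a rise somewhere lowers the rest. Regions named are the 6 joint domains with the largest minimum covered length, the 4 per direction with the smallest p, the 4 per direction with the widest distance between genotypes, the widest peak and domain of each library, and, per direction, the 2 windows of smallest p. The comparison, measures and rules were chosen with earlier results of these data known. Alternatives were score minimum 100, equal number of top-scoring peaks, chromosome X, other joining gaps and width limits, leaving out each library, other pseudocounts, windows, filters and scaling, and the replicate number as a block. Leaving out peaks under 500 bp was added after seeing the data.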

Additional observations from a re-analysis of the deposited data

How the results depend on the processing

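The unknown read depth limits every comparison of numbers and widths, and with 2 libraries per genotype no exact test can reach a p below 0.33. Of 119 alternatives for the measures per library, 110 kept the direction and 9 reversed it. The number of domains turned to -0.021 (log2) at equal number of top-scoring peaks, where peak number itself is equal by construction and gives no value. The peak cover of domains of at least 20 kb, near no difference, turned to 0.66 percentage points with scores of at least 100, 4.43 at equal number, 0.42 with chromosome X, and 0.89, 0.98 and 1.91 joined at 1, 10 and 20 kb. It ranged from -1.60 to 1.57 with a library left out. The joint domains called numbered 7 with no filter on low values, 1 without scaling, 0 without a trend, 1 with scores of at least 100, 0 at equal number, 1 joined at 10 kb and 1 to 3 with a library left out. Called windows numbered 1 of 1339 with scores of at least 100 and 1 of 1139 at equal number. With the replicate block, 13 of 1385 windows were called, 6 higher and 7 lower in RbL. Among them were the 4 named, with limma adjusted p from 1.3e-11 to 0.0304. Of 4338 joint domains, the same 2 were called with the block. Same-numbered libraries deviated together with r = 0.20 over domains and 0.39 over windows, but with 2 numbers and no label on what they share, the libraries cannot be taken as paired. Without scaling the median log2 difference moved to 0.63 over domains and 0.69 over windows. It then turned positive at the domains of chromosomes 15 (0.37), 11 (0.40), 6 (0.38), 2 (0.23), 7 (0.34) and 17 (0.35) with the largest minimum, and at those on chromosomes 1 (0.37) and 9 (0.42). With a library left out, the scaled differences ranged from -0.66 to 0.080 on chromosome 11, -0.69 to 0.073 on chromosome 6 and -0.68 to 0.018 on chromosome 17, positive without WT 1. Of 288 alternatives for named regions, 260 kept direction and call. Causes of these changes were not tested. Leaving out peaks under 500 bp, chosen after seeing the data, called 2 joint domains and 0 windows.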
